A study of Saccharomyces cerevisiae with 109 samples.

Results

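The 7 major hexose transporter genes of budding yeast that are named HXT1 to HXT7 and the 3 genes for its glucose-phosphorylating enzymes, HXK1, HXK2 and GLK1, were followed across stresses, strains and times. The members were chosen by name, with earlier results of these data known. They were HXT1 (YHR094C), HXT2 (YMR011W), HXT3 (YDR345C), HXT4 (YHR092C), HXT5 (YHR096C), HXT6 (YDR343C), HXT7 (YDR342C), HXK1 (YFR053C), HXK2 (YGL253W) and GLK1 (YCL040W). These are 10 of the 6297 genes in the table, and all 10 were found. In the reference annotation HXT7, HXT6 and HXT3 lie close together on chromosome IV, with HXT7 and HXT6 as direct neighbours, and HXT4, HXT1 and HXT5 lie close together on chromosome VIII, with HXT1 and HXT5 as direct neighbours.

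Glucose enters yeast cells by facilitated diffusion through hexose transporters, and is then phosphorylated to glucose 6-phosphate, the entry to glycolysis and to glycogen and trehalose synthesis. Hxt1p and Hxt3p are low-affinity carriers used when glucose is plentiful, Hxt2p, Hxt4p, Hxt6p and Hxt7p have higher affinity and are used when glucose is scarce, and HXT5 is known for expression in slowly growing cells. Hxk2p is the main hexokinase in glucose-grown cells and also takes part in glucose repression, whereas HXK1 and GLK1, which encodes glucokinase, are induced on other carbon sources and in stress. The coding sequences of HXT6 and HXT7 are nearly identical, so a probe for one may also bind transcripts of the other, and their values are uncertain as measures of the single genes.

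Each of the 109 arrays set RNA from 2 samples against each other in 2 dyes. On all but 3 of them stressed cells were compared with unstressed cells of the same strain, and each value is the log2 ratio of stressed over unstressed. A value of 0 is the mean of the array. Wild-type BY4741 cells (wt) and cells lacking RPD3 (rpd3), which encodes a histone deacetylase, were exposed to heat shock from 25 to 37°C in 2 time courses (9 arrays per strain, 5 to 60 min), to 0.75 M NaCl (0.7 M in the descriptions) in 2 time courses (7 arrays per strain, 15 to 90 min), to a shift from 37°C back to 25°C in 2 time courses (7 arrays per strain, 5 to 60 min), and to 0.4 mM H2O2. The labels give 30°C as the temperature before the second heat shock course of rpd3 cells. For H2O2, wt, rpd3, pho23 and rco1 had 1 time course each from 10 to 60 min, whose 30 min array was replicate 1 at that time. There were 8 wt arrays at 30 min, 3 each of rpd3, pho23, rco1, msn2/msn4 and msn2/msn4/rpd3, 4 of ume6, and 3 each of NSY429(wt) and RMY491(H4KQ), a strain whose histone H4 lysines are replaced by glutamine, with its own parent. PHO23 encodes a subunit of the large Rpd3 complex, RCO1 a subunit of the small one, UME6 a factor that recruits Rpd3, and MSN2 and MSN4 the activators of the general stress response. Single arrays covered rpd3 cells with an empty plasmid (pRS415), with RPD3 or with the inactive rpd3H150:151A allele, and heat-shocked wt cells with DMSO or with 10 µM trichostatin A (TSA), a deacetylase inhibitor. By the methods, RPD3 was replaced by KANMX in BY4741 and by LEU2 in the msn2/msn4 strain, the pho23 and rco1 strains were purchased deletion strains, and plasmid-bearing cells grew in SC medium without leucine rather than in YPD. Another 3 arrays compared unstressed rpd3 with unstressed wt cells. Heat shock and the 37 to 25°C shift also moved cells into fresh medium by filtration or centrifugation, whereas H2O2 and NaCl were added to the culture, so for both temperature shifts the temperature and the handling cannot be told apart.

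Between 4288 and 6115 genes were measured per array. Of the members, HXT3, HXT7 and GLK1 were measured on all 109 arrays and HXK1 on 97, the fewest. The ratios ran the same way on arrays of opposite dyes, with correlations across genes from 0.28 to 0.96 in H2O2. The stress genes CTT1, HSP12, DDR2, SSA4 and PGM2 were above 0 wherever they were measured on wt arrays of heat shock, H2O2 and NaCl. All ratios but those of the 3 unstressed arrays compare samples of 1 strain, so they show little of a deleted gene. RPD3 read -2.57 on the 1 unstressed array that measured it. MSN4 was measured on all 3 arrays labelled msn2/msn4, at 0.44 to 1.52, and on all 3 labelled msn2/msn4/rpd3, at 0.44 to 1.07, beside 0.68 to 1.84 on wt arrays of H2O2. The MSN4 values thus overlapped those of wt cells, but a measured ratio alone does not show that a gene was present. PHO23 was measured on all 7 pho23 arrays of H2O2, at -2.23 to -0.41. MSN2 was measured on 1 of 3 arrays of each group, against 12 of 12 wt arrays of H2O2. A ratio within 1 strain gives no level to check a deletion, and the absence of MSN4 was not tested. Both groups are therefore named by their labels only. The glucose-repressed genes FBP1, PCK1, ICL1, MLS1, ADH2, SUC2, JEN1 and ACS1 rise when glucose runs out. Their ratios can show a change between unstressed and stressed cells, but not glucose that was low in both. Of the 5 tested after 30 min of H2O2 in wt cells, only ACS1 rose (0.76).

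In wt cells 30 min of H2O2 lowered 5 members and raised 3, and HXK1 and GLK1 moved against HXK2. Of all genes tested, 67.7% passed the same threshold (limma, adjusted p below 0.01), 34.4% higher and 33.2% lower, so the count of 8 in 10 members is close to the background and the sizes and directions carry the description. The transporters HXT1 to HXT4 fell. HXT1 lay between -2.43 and -1.43 with a median of -1.71 on 7 arrays, a mean change of -1.81 ± 0.13 (SE, adjusted p = 2.8e-12), or 3.5-fold. HXT2 ranged from -2.07 to -0.15 (median -1.35) and HXT4 from -1.77 to -0.27 (median -1.20) on 8 arrays. HXT3 lay below 0 on 7 of 8 arrays, with a mean of -0.74 ± 0.17 (SE), and read 0.74 on replicate 3. HXT1, HXT2 and HXT4 were below 0 on every array that measured them.

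HXT5 was the transporter that rose, from 1.67 to 2.58 with a median of 2.21 on 8 arrays (mean 2.20 ± 0.14, SE, adjusted p = 2.0e-13). Its lowest array was above the highest array of each of HXT1 to HXT4. HXT6 (mean -0.48 ± 0.30, SE, adjusted p = 0.14) and HXT7 (mean 0.88 ± 0.31, SE, adjusted p = 0.012) did not pass the threshold.

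Among the kinases, GLK1 rose on every wt array, from 2.39 to 4.26 (median 3.64), a mean of 3.51 ± 0.27 (SE, adjusted p = 2.9e-12) or 11.4-fold. HXK1 ranged from 2.06 to 4.36 with a median of 3.09, a mean of 3.19 ± 0.24 (SE, adjusted p = 2.1e-11) or 9.11-fold. HXK2 ranged from -1.09 to 0.14 with a median of -0.70, and its mean of -0.64 ± 0.19 (SE) passed the threshold (adjusted p = 0.0031). The HXK1 and GLK1 ratios covered nearly the same range, and neither overlapped that of HXK2. The HXK2 call ended without wt replicate 1 or 5, where its adjusted p was up to 0.012.

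In the H2O2 time course of wt cells, a single culture with no test, GLK1 went from 1.18 at 10 min to 3.53 at 30 min and 2.34 at 60 min. HXT5 went from 1.29 at 10 min to 2.39 at 30 min and was back at 0.24 at 60 min. HXK1 started at 0.54, reached 3.07 at 40 min and ended at 2.81 at 60 min. HXT2 was -0.05 at 10 min and -2.05 at 40 min. HXT1 was lower than HXT2 at 10 min (-0.66) and near the same level at 40 min (-1.85).

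Of the other genes of the pathway, EMI2, a hexokinase-like gene, rose by 2.78 after 30 min of H2O2 and the hexokinase-like gene YLR446W by 0.50. Of 11 other transporter genes only 2 were measured often enough for the test, HXT12 (0.75) and GAL2 (0.60), and both rose. Of 12 tested genes for glucose sensing and repression, 3 rose and 2 fell. REG1 (0.84), which encodes a phosphatase subunit of glucose repression, MTH1 (0.52), which encodes a co-repressor of HXT genes, and the kinase gene SNF1 (0.49) rose, while the repressor gene MIG2 fell by 0.59. The last of the 5, STD1, a relative of MTH1 that lies outside the rule for named genes and was chosen after its value was seen, fell by 0.33. Of 4 tested genes of upper glycolysis, PFK2 (-0.51), FBA1 (-0.49) and PGI1 (-0.37) fell.

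HXT2, HXT3, HXT6 and HXT7 rose in heat shock and were highest within the first 10 min. Of 6 members tested over the wt heat shock courses, 4 rose and 1 fell, against 21.5% of all genes called, 9.25% higher and 12.2% lower (limma F test over times, adjusted p below 0.01). HXT2 was 3.76 and 3.56 at 5 min in the courses 1 and 2, a mean of 3.66 ± 0.24 (SE) or 12.6-fold (adjusted p over times 1.2e-05). It was down to -0.01 and 0.03 at 30 min, so the courses lay close together at both times. HXT7 was 3.81 and 1.77 at 5 min, HXT6 was 3.22 and 2.03, and HXT3 was 2.59 and 2.38 (adjusted p = 0.0042, 0.0034 and 0.0049 over times). All 3 lay between -0.02 and 0.30 at 30 min. HXK2 also declined after 5 min, but to values below 0, and was called lower by its estimate at 30 min. It read 0.34 and 1.13 at 5 min and -1.66 and -1.74 at 30 min (adjusted p = 0.0021). These calls rest on few arrays. Leaving out the 5 min array of course 1 ended the calls of HXT3, HXT6 and HXT7 and left 2 members called, leaving out that of course 2 ended the call of HXT3, and leaving out either 30 min array ended those of HXT3, HXT7 and HXK2. With all arrays scaled to equal spread only HXT2 was called, and the adjusted p of HXT3, HXT6, HXT7 and HXK2 was 0.013 to 0.025. Of the listed genes EMI2 (3.14 at 5 min), MTH1 (1.57 at 5 min) and the glucose-repressed ACS1 (1.90 at 20 min) rose, and none of the 4 tested genes of upper glycolysis were called.

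HXT1, HXT4, HXT5 and HXK1 were missing on too many heat shock arrays for the test over all times. HXT5 was measured on 7 of 9 wt arrays and had its highest value at 10 min, 6.34. Its lowest value was 4.21, at 15 min, and it was still 4.45 at 60 min. HXK1 was 4.12 at 5 min in course 1, and 1.29 and 2.55 at 60 min. HXT1 read 0.23 and 0.86 at 5 min, -1.83 at 10 min, -1.22 at 15 min, and 0.84 and 1.35 at 60 min. HXT4 was 1.21 and 1.93 at 5 min. HXT1 thus lay above 0 at both ends of the hour and below it at 10 and 15 min.

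GLK1 was between 0.80 and 3.92 on all 9 wt heat shock arrays, with its highest value at 10 min. The test over times missed the threshold (adjusted p = 0.016). The fit shares its spread with the rpd3 arrays, on 1 of which, at 30 min in course 2, GLK1 read -4.29, against 0.11 at 20 min and 0.19 at 60 min in the same culture and 1.19 at 30 min in course 1. Without that array, an alternative chosen after the data were seen, GLK1 rose in wt cells with an adjusted p of 6.8e-06.

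**Figure D1:**
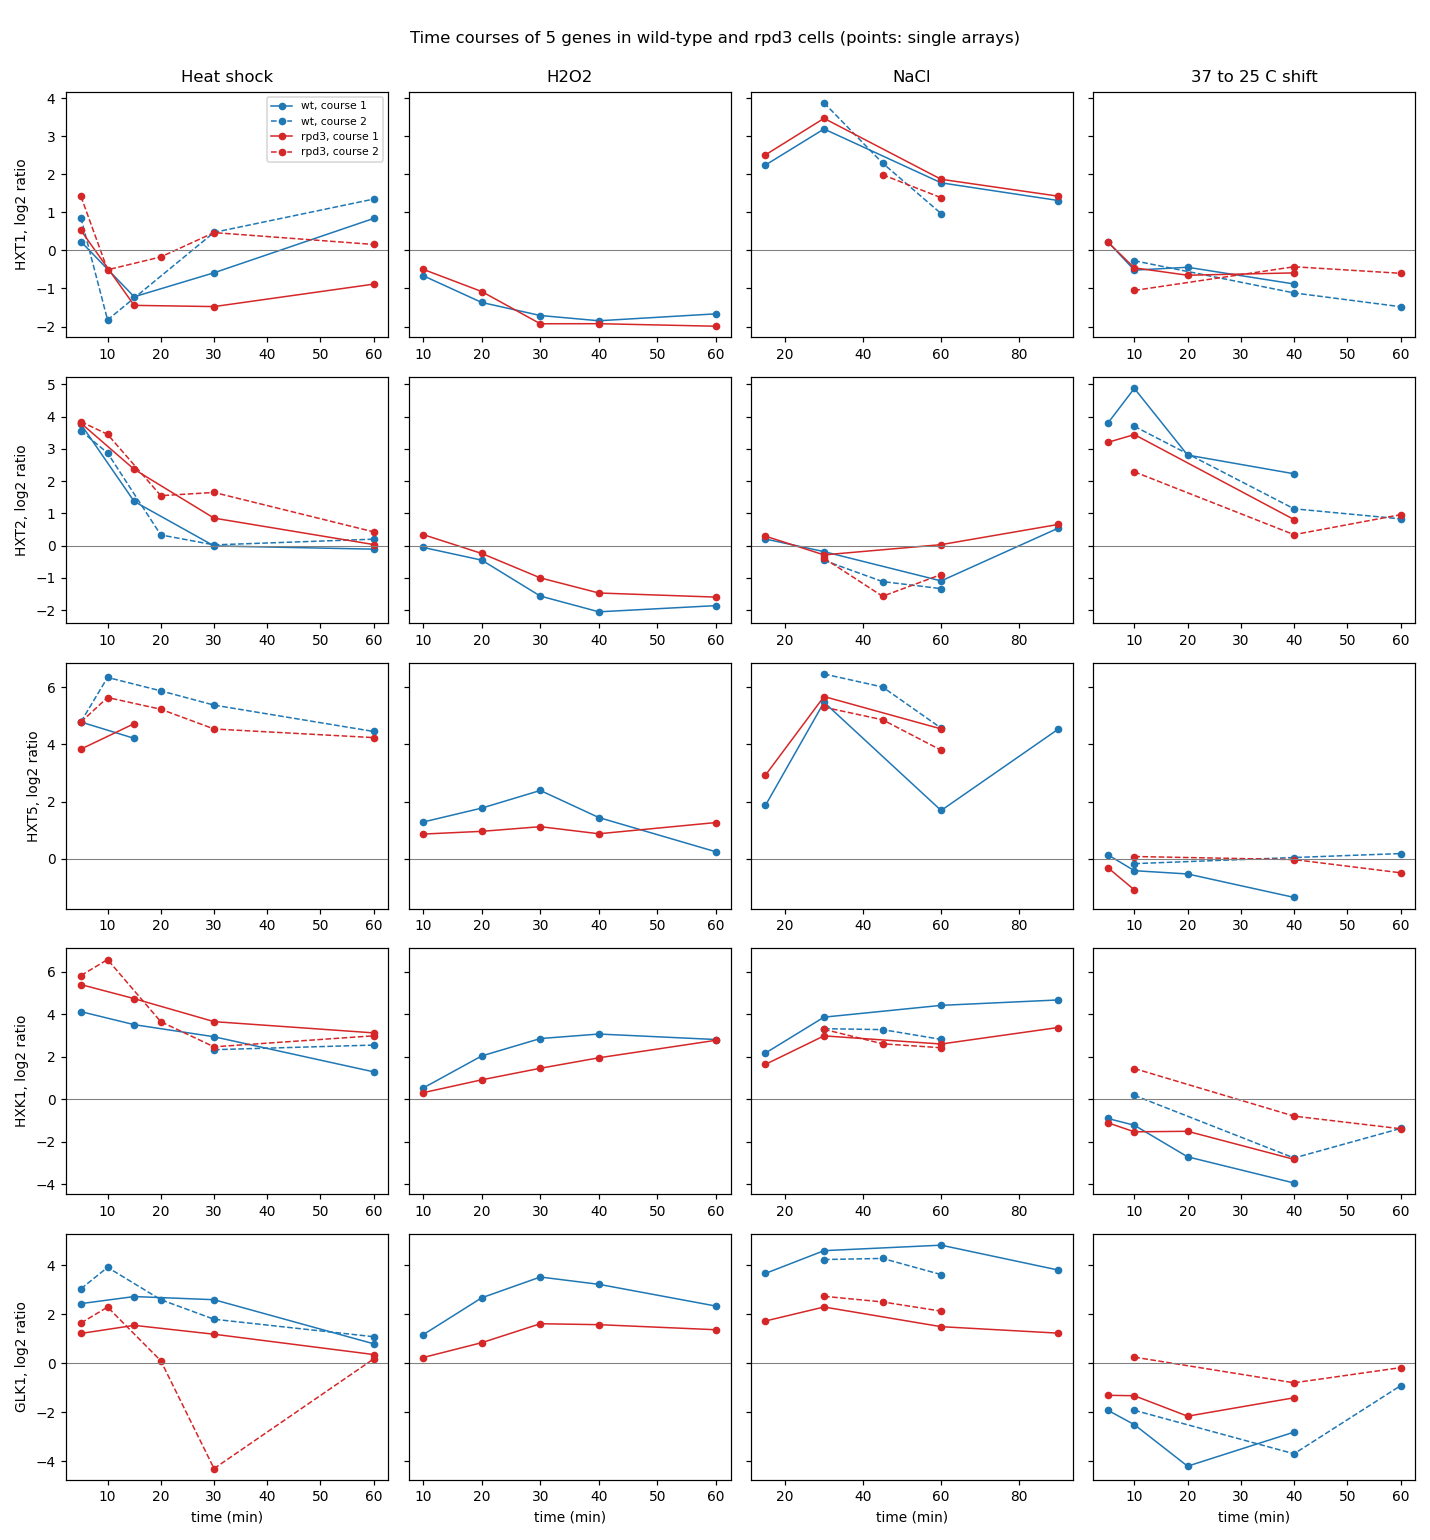
Time courses of HXT1, HXT2, HXT5, HXK1 and GLK1 (rows) in 4 treatments (columns). The vertical axes give log2 ratios of stressed over unstressed cells, the horizontal axes time in minutes. Points are single arrays, lines join the measured times of 1 culture, and colours separate wt from rpd3. HXT2 stands at 3.56 to 3.84 in both strains 5 min after heat shock, and GLK1 of rpd3 cells lies below that of wt cells at every time in NaCl.

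NaCl raised HXT1, HXT3, HXT5, HXK1 and GLK1 in wt cells. All 10 members were tested over the wt courses and 5 rose, with none lower, against 27.6% of all genes called and 12.2% called higher. HXT1 was 3.20 and 3.88 at 30 min in the courses 1 and 2 (mean 3.54 ± 0.27, SE, 11.6-fold; adjusted p over times 0.00067) and 1.78 and 0.97 at 60 min. It was above 0 on all 7 wt arrays. HXT5 was 1.87 at 15 min, and 5.48 and 6.46 at 30 min. It read 1.69 at 60 min in course 1 and 4.57 at that time in course 2, the widest gap between the courses among the members (adjusted p over times 0.00058). HXT3 was 1.20 and 1.69 at 30 min (adjusted p = 0.0064), a call that ended without either of these arrays and at equal spread (adjusted p = 0.024).

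GLK1 was already at 3.68 at 15 min of NaCl, and stood at 4.61 and 4.24 at 30 min and 3.81 at 90 min (adjusted p = 7.6e-05). HXK1 was 2.18 at 15 min, 3.86 and 3.32 at 30 min and 4.67 at 90 min (adjusted p = 0.00022), so its highest value was its last. HXT2 read -0.18 and -0.46 at 30 min and -1.09 and -1.33 at 60 min (adjusted p = 0.015). HXT4, HXT6, HXT7 and HXK2 stayed within -0.88 to 1.33 and did not pass the test. EMI2 rose (2.97 at 30 min), as did the glucose-repressed ICL1 (1.68), while ADH2 fell by 1.22 at 30 min. None of the 11 tested sensing and repression genes and none of the 4 tested genes of upper glycolysis were called.

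After the shift from 37 to 25°C no member passed the wt threshold of 0.01 with limma, and neither did any other gene (0% called, 1403 of 5036 genes at an unadjusted p below 0.05). The lowest adjusted p values among the members were those of HXT2, GLK1 and HXT1. HXT2 was 3.79 at 5 min, 4.87 and 3.70 at 10 min, and 2.23 and 1.14 at 40 min (adjusted p = 0.018, and 0.0040, a call, at equal spread). GLK1 stood at -1.91 after 5 min and -4.19 after 20 min, its 40 min arrays read -2.80 and -3.69, and its 60 min array read -0.91 (adjusted p = 0.018). HXT1 was 0.23 at 5 min and -1.48 at 60 min (adjusted p = 0.039). HXT2 was thus high early after both the shift up and the shift down in temperature, the treatments that share a change of medium, while GLK1 was above 0 after the shift up and below 0 after the shift down. HXK1 read -1.22 and 0.19 at 10 min and -3.93 and -2.76 at 40 min. HXT5, at 4.21 to 6.34 in heat shock, stayed between -1.35 and 0.18.

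At 30 min, the time that 3 stresses share, the members differed between stresses in wt cells. These comparisons share arrays. By the methods, cells grew at 25°C before heat shock and otherwise at 30°C unless noted, so the unstressed references differ too. In comparisons with heat shock the stress cannot be told apart from growth temperature and the change of medium. NaCl against H2O2 called 4 members, all higher in NaCl, where 16.1% of all genes were called and 7.22% were higher: HXT1 by 5.35 ± 0.31 (SE, adjusted p = 8.0e-07), HXT5 by 3.76, HXT3 by 2.19 and HXT4 by 1.96 (limma, adjusted p = 6.7e-06, 0.0048 and 0.0048). Heat shock against H2O2 called 4 (28.2% of all genes, 14.4% higher and 13.8% lower). HXT1 (by 1.75) and HXT5 (by 3.17, on 1 heat shock array) were higher in heat shock, and HXK2 fell by 1.06 and GLK1 by 1.30 relative to H2O2. NaCl against heat shock called 3 (17.7% of all genes, 8.44% higher): HXT1 by 3.59, GLK1 by 2.22 and HXK2 by 1.25, all higher in NaCl. The calls of HXT3 and HXT4 ended without NaCl replicate 2 (adjusted p = 0.076 and 0.0997). Those of HXK2 and GLK1 between heat shock and H2O2 ended without either heat shock array, and that of GLK1 also without any of 5 H2O2 arrays (replicates 1, 3, 4, 5 and 6). Between NaCl and heat shock, the HXK2 call ended without any 1 of the 4 arrays and the GLK1 call without 3 of them. With all arrays scaled to equal spread GLK1 was called in neither comparison with heat shock (-0.25 against H2O2, adjusted p = 0.73, and 1.14 for NaCl, adjusted p = 0.20).

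The order of the stresses at 30 min therefore depended on the gene. For HXT1 it was NaCl (3.20 and 3.88), heat shock (-0.59 and 0.48) and H2O2 (-2.43 to -1.43), with no overlap. For HXT5 NaCl (5.48 and 6.46) and heat shock (5.38) both lay above H2O2 (1.67 to 2.58). NaCl minus heat shock was 0.59 ± 0.45 (SE, adjusted p = 0.40) for HXT5, and -1.21 (adjusted p = 0.044) once all arrays were scaled to equal spread, so the order of these stresses depends on the scaling. For GLK1 NaCl (4.61 and 4.24) overlapped the upper end of H2O2 (2.39 to 4.26), and heat shock (2.60 and 1.80) overlapped the lower end. For HXK1 heat shock (2.94 and 2.34) and NaCl (3.86 and 3.32) both lay inside the range of H2O2 (2.06 to 4.36), and no pair of stresses passed the test.

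**Figure D2:**
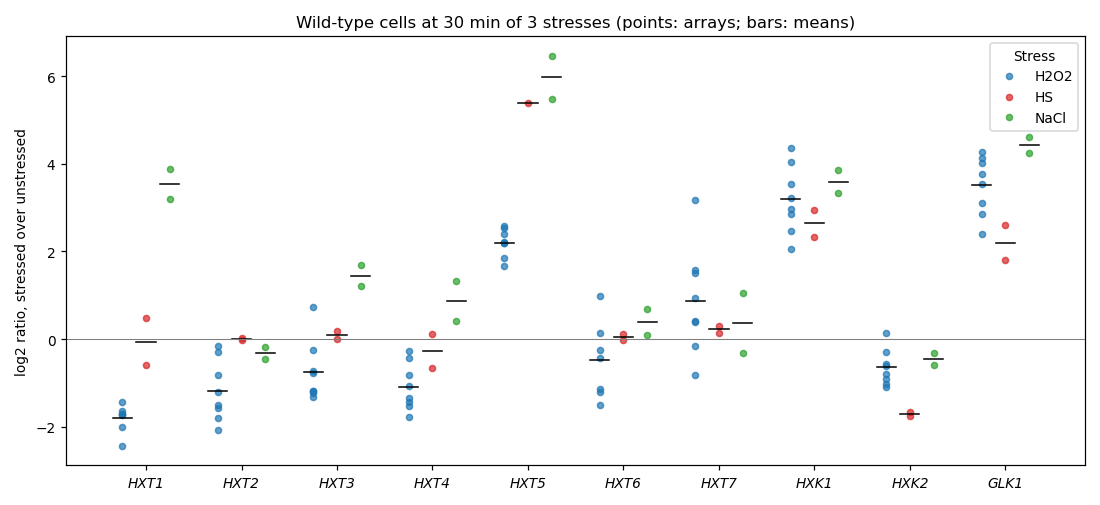
Log2 ratios (vertical axis) of the 10 genes (horizontal axis) in wild-type cells 30 min into H2O2, heat shock or NaCl. Points are arrays, colours are stresses and bars are means. HXT1 lies at 3.20 and 3.88 in NaCl and at or below -1.43 in H2O2.

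The comparison of deletion strains with wt cells asked which responses need Rpd3 or its partners. All strains but RMY491(H4KQ) and msn2/msn4/rpd3 were compared with the same 8 wt arrays, so their comparisons are not independent. The sources used here do not say for every group that replicates were separate cultures, so p-values measure the spread between these samples. At 30 min of H2O2 the response of rpd3 cells was lower than that of wt cells for 4 members and higher for none, against 22.9% of all genes called in either direction and 9.32% called lower (limma, adjusted p below 0.05). GLK1 was 1.62, 2.18 and 1.13 on the 3 rpd3 arrays, all below the lowest wt array (2.39), a difference of -1.86 ± 0.51 (SE, adjusted p = 0.0089). HXK1 was 1.46, 1.64 and 1.08, below the lowest wt value of 2.06, a difference of -1.79 ± 0.47 (SE, adjusted p = 0.0067). Both genes were still above 0 on every rpd3 array. HXT3 was -1.74, -1.78 and -2.39, below the lowest wt value of -1.31, a difference of -1.23 ± 0.32 (SE, adjusted p = 0.0060). HXT6 was -1.85, -2.11 and -2.29, below the lowest wt value of -1.50 (difference -1.60 ± 0.54, SE, adjusted p = 0.031).

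The calls of GLK1 and HXK1 depended on the scaling. The SD of all ratios on an array was 0.991 to 1.44 in wt cells and 0.846 to 1.03 in rpd3 cells, and with all arrays scaled to equal spread both calls ended (GLK1 -0.998, adjusted p = 0.16, HXK1 -1.01, adjusted p = 0.096), while HXT3 and HXT6 stayed called and HXT1 (-1.17) and HXK2 (-1.20) were added. Equal spread also removes a strain difference in the size of the response over all genes. Calls lost or added under it therefore do not decide whether the unscaled calls are sound. The calls also did not all hold when single arrays were left out. Without rpd3 replicate 3 the calls of GLK1 (adjusted p = 0.075), HXT3 (0.069) and HXT6 ended and 1 member, HXK1, was called. HXT6 was also lost without rpd3 replicate 1 or 2 and without wt replicate 6 or 7. Replicate 3 was the only rpd3 array whose stressed cells carried the 650 dye, and among 650-dye arrays alone no member was called, with differences of -2.44 for GLK1 and -2.28 for HXK1. HXT5 was 1.12, 1.49 and 1.83, within the wt range in part, and its difference of -0.72 ± 0.27 (SE) stood at the threshold (adjusted p = 0.0503). HXT7 differed by -1.43 ± 0.59 (SE, adjusted p = 0.080). HXT1, HXT2, HXT4 and HXK2 differed by -0.82 to -0.18 and did not pass. EMI2 (-1.16), YLR446W (-1.25), ACS1 (-1.0), PFK2 (-0.64) and SNF1 (-0.45) were called lower among the listed genes of the pathway. The stress genes HSP12 (-2.04) and PGM2 (-1.49) were called lower too, 2 of the 5 on that list. The methods also describe slower growth of rpd3 cells. They state that growth cannot account for the expression defects, because pho23 cells show them too and double as fast as wild type. The part of the weaker stress genes or of growth in the values of GLK1 and HXK1 was not tested here.

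In pho23 cells HXT5 was 0.36, 0.94 and 0.89, below the lowest wt array (1.67), and the difference of -1.47 ± 0.27 (SE) was called (adjusted p = 0.00043). GLK1 was 1.87, 1.5 and 1.61, also below every wt array, with a difference of -1.84 ± 0.51 (SE, adjusted p = 0.012), a call that ended without pho23 replicate 2 (adjusted p = 0.063) and at equal spread (-1.01, adjusted p = 0.20), where HXT1 was called instead (-1.28). These 2 of 10 members stand against 17.8% of all genes called and 8.1% called lower. HXK1 was 1.93, 1.82 and 1.83, below every wt array too, and its difference of -1.33 ± 0.47 (SE) just missed the threshold (adjusted p = 0.051). HXT3 and HXT6, which were called in rpd3 cells, differed by -0.52 and -1.12 and did not pass in pho23 cells. Whether these strains differ from each other was not tested.

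No member was called in rco1 cells (0.561% of all genes called, 444 at an unadjusted p below 0.05, limma) or in ume6 cells (0.735% called, 919 unadjusted). In rco1 cells GLK1 was 2.44, 3.20 and 2.91, inside the wt range, a difference of -0.66 ± 0.51 (SE). HXK1 was 1.65, 2.33 and 2.12 (difference -1.15 ± 0.47, SE, adjusted p = 0.50). In ume6 cells GLK1 was 2.69, 2.62, 2.56 and 0.66, a difference of -1.38 ± 0.47 (SE, adjusted p = 0.14), and HXK1 ran from 1.1 to 4.22, overlapping the wt range. HXT1 in ume6 cells differed by 0.65 ± 0.22 (SE, adjusted p = 0.15), and was called without ume6 replicate 1.

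The arrays labelled msn2/msn4, on which MSN4 was measured, read lower than wt for HXT5 and HXK1 (2 of 10 members, against 4.62% of all genes and 3.31% called lower). HXT5 was 0.58, 0.96 and 0.57 on these arrays, below every wt array, a difference of -1.50 ± 0.27 (SE, adjusted p = 0.00080). HXK1 was measured on 1 of the 3 arrays, at 0.04, so its difference of -3.15 ± 0.73 (SE, adjusted p = 0.012) rests on that value and on the spread of the other groups. GLK1 was 3.18, 2.00 and 1.44, overlapping the wt range in part, a difference of -1.30 ± 0.51 (SE, adjusted p = 0.14). HSP12 (-5.43) and PGM2 (-3.59) were called lower among the stress genes, as were EMI2 (-1.41) and GRR1 (-1.23), which encodes a ubiquitin ligase subunit of glucose signalling.

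The arrays labelled msn2/msn4/rpd3 gave no call among the members against those labelled msn2/msn4 (8.88% of all genes called, 1130 at an unadjusted p below 0.05, limma). With all arrays scaled to equal spread HXT1 (-0.84), HXT4 (-1.45) and HXK2 (-1.16) were called lower (adjusted p = 0.035, 0.049 and 0.048). GLK1 was 0.20, 0.64 and 0.20, below all 3 msn2/msn4 arrays, and its difference of -1.86 ± 0.62 (SE) did not pass (adjusted p = 0.059). The estimate for rpd3 against wt cells was -1.86 as well, and the difference between these estimates, a test chosen after the data were seen, was 0.01 ± 0.81 (SE, adjusted p = 1.00 of a model over 5168 genes). That standard error leaves room for sizeable differences in either direction. HXT5 read 0.52 and 0.45 in msn2/msn4/rpd3 cells, close to the msn2/msn4 values. Against rpd3 cells the triple mutant gave no call either (0.29% called, 406 unadjusted, with HXT5 called at equal spread, -1.04, adjusted p = 0.037), with HXT7 at 0.79, 1.29 and 0.97 in the triple mutant and -0.32, -0.38 and -0.96 in rpd3 cells (difference 1.57 ± 0.71, SE, adjusted p = 0.57).

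In the histone H4 mutant no member passed against its parent (1.2% of all genes called, 840 unadjusted, limma). HXK1 was 0.55, 0.48 and 0.36 in RMY491(H4KQ) and 1.89, 1.80 and 3.14 in NSY429(wt), with no overlap (difference -1.81 ± 0.57, SE, adjusted p = 0.11, and 0.047 at equal spread). GLK1 was 1.21, 1.13 and -2.01 in the mutant and 2.11, 1.68 and 2.73 in the parent, also with no overlap (difference -2.06 ± 0.62, SE, adjusted p = 0.092). HXT1 went the other way without overlap, at -0.91, -0.87 and -0.49 in the mutant and -1.63, -1.345 and -1.02 in the parent. Its difference was 0.58 ± 0.29 (SE, adjusted p = 0.33). How many of all genes showed no overlap was not counted. EMI2 was called lower (-1.86).

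**Figure D3:**
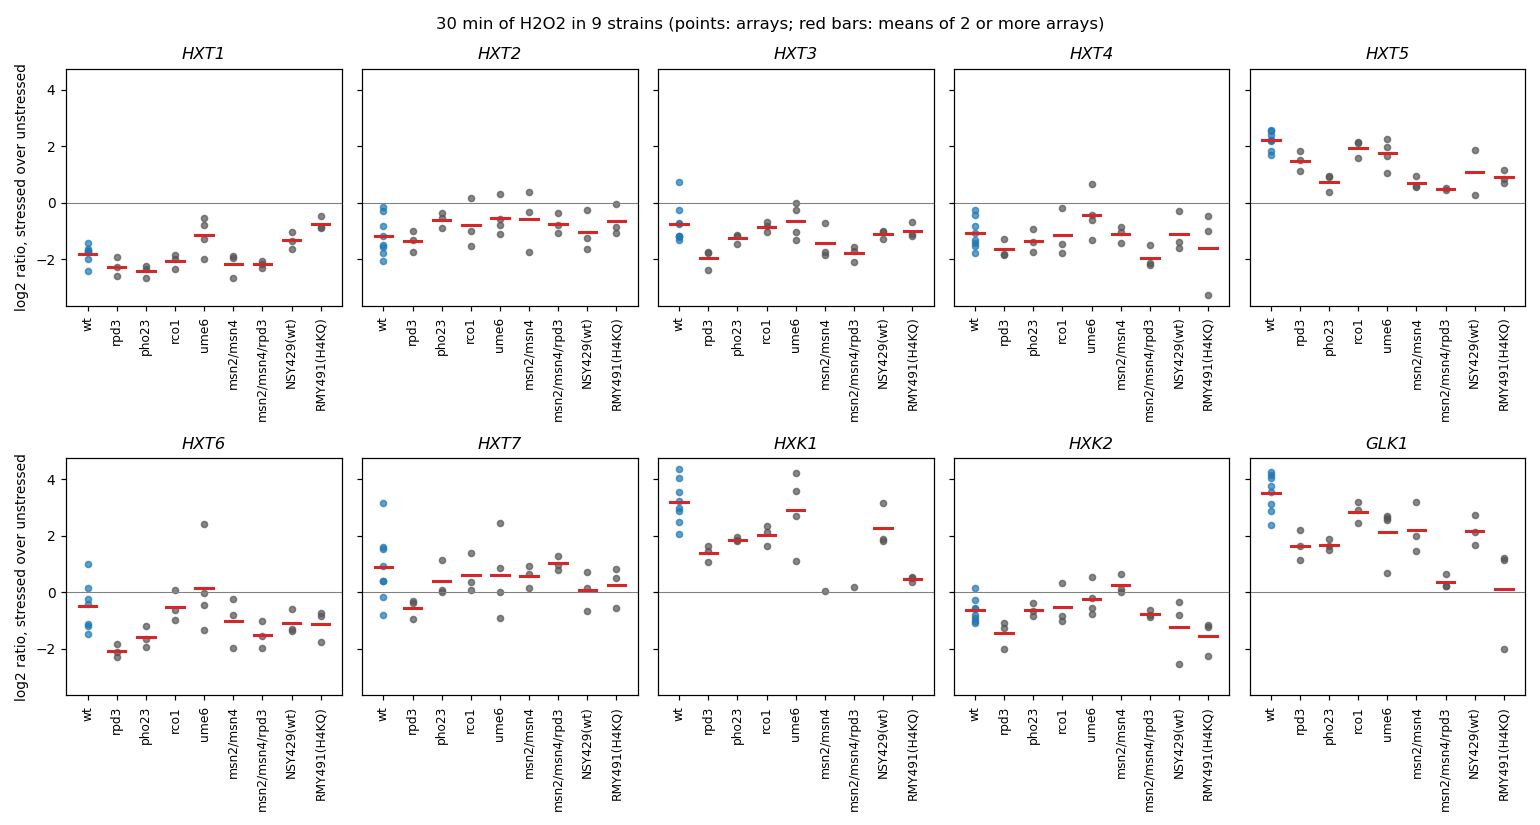
Log2 ratios (vertical axes) of each gene (panels) after 30 min of H2O2 in 9 strains (horizontal axes). Points are arrays, with wt in blue, and red bars are means of at least 2 arrays. All rpd3 and pho23 points of HXK1 and GLK1 lie below the lowest wt point.

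The strain difference was followed over time in the other treatments, where arrays of wt and rpd3 cells were set side by side by the course number in their titles. The descriptions give other numbers for wt heat shock course 2 and rpd3 shift down course 1, and call the rpd3 arrays of shift down course 2 wt, against their titles and sources. In NaCl GLK1 was the 1 member called, lower in rpd3 cells (3.35% of all genes called, 1.15% lower, adjusted p = 0.036 over times, limma F test). In course 1 it was 1.74, 2.31, 1.5 and 1.24 at 15, 30, 60 and 90 min in rpd3 cells, against 3.68, 4.61, 4.83 and 3.81 in wt cells. In course 2 it was 2.74, 2.51 and 2.14 at 30, 45 and 60 min against 4.24, 4.29 and 3.63. The differences were -1.78 to -2.58, and all 7 rpd3 arrays lay below all 7 wt arrays. With the course number as a replicate block the adjusted p was 0.061 and no member was called, at equal spread it was 0.53, and leaving out single arrays moved the adjusted p between 0.021 and 0.18. Without the wt 30 min array of either course, the rpd3 30 min array of either course, or the rpd3 60 min array of course 1, the call ended. HXK1 was lower in rpd3 cells by 0.46 to 1.30 at each time and did not pass (adjusted p = 0.54).

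HXT1 was above 0 in both strains in NaCl. It was 3.48 in rpd3 cells at 30 min in course 1, beside 3.20 in wt cells, and the differences over the 5 times were -0.31 to 0.27 (adjusted p = 0.999). HXT5 was 5.68 and 5.30 in rpd3 cells at 30 min, beside 5.48 and 6.46 in wt cells, and was not tested because 1 time was missing. HXT2 and HXT3 differed by -0.68 to 0.78 and did not pass.

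In heat shock none of the 5 tested members differed between strains (1.58% of all genes called, 468 at an unadjusted p below 0.05, limma). By the labels, course 2 started from 30°C in rpd3 cells and from 25°C in wt cells. In that course strain and starting temperature cannot be told apart. GLK1 was 1.23, 1.56, 1.19 and 0.36 at 5, 15, 30 and 60 min in rpd3 cells of course 1, against 2.44, 2.73, 2.60 and 0.80 in wt cells. In course 2 it was 1.65, 2.30, 0.11, -4.29 and 0.19 at 5, 10, 20, 30 and 60 min, against 3.05, 3.92, 2.60, 1.80 and 1.09. Every rpd3 value was thus below the wt value of the same course and time. With all arrays the adjusted p was 0.56. Without the rpd3 array at -4.29, GLK1 was called lower (-2.49 at 20 min, adjusted p = 0.033). It was also called without the other rpd3 array at 30 min (adjusted p = 0.0019), where the remaining value at that time is the -4.29. HXT2 moved the other way, with rpd3 values of 0.85 and 1.65 at 30 min beside -0.01 and 0.03 in wt cells, and was above wt in both courses at every time, but did not pass (adjusted p = 0.24). HXK1, not tested, was 5.40 and 5.82 at 5 min in rpd3 cells and 4.12 in the 1 wt array that measured it. It was above wt at every course and time measured in both strains, unlike in H2O2 at 30 min and in NaCl. At 15 min in course 1 it was 4.74 against 3.51, and at 60 min in course 2 it was 2.99 against 2.55.

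After the shift from 37 to 25°C no member and no other gene differed between strains (0% called, 237 at an unadjusted p below 0.05, limma). GLK1 was -1.32 and 0.26 at 10 min, -2.15 at 20 min, and -1.40 and -0.79 at 40 min in rpd3 cells, against -2.50 and -1.91, -4.19, and -2.80 and -3.69 in wt cells. All rpd3 values lay closer to 0 than the wt value of the same course and time, with differences of 0.61 to 2.15 (adjusted p = 0.87). HXT2 was 3.44 and 2.29 at 10 min in rpd3 cells, below the 4.87 and 3.70 of wt cells. With all arrays and no scaling the strain difference of GLK1 thus passed the test in H2O2 and NaCl and not in the temperature shifts. Tests of whether the strain difference at 30 min depends on the stress, added after the data were seen, called no member in any of 3 pairs of stresses (limma, adjusted p of 0.12 or above).

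Before stress, rpd3 over wt values were tested on 3 arrays, and no member was called (3.5% of all genes, 1134 at an unadjusted p below 0.05, limma). HXT6 was -0.41, -1.21 and -1.04, HXT7 was -0.39, -1.07 and -0.78, and HXT4 was -0.50, -1.30 and -0.61 (adjusted p = 0.082, 0.087 and 0.096). HXT3, HXK1 and HXK2 were also below 0 on all 3 arrays, with means of -0.57, -0.77 and -0.74. GLK1 was 1.25, 1.03 and -0.13, and HXT1 was -2.05, -0.80 and 0.37. The third value of both genes, from the array of opposite dyes, had the other sign. That array correlated with the other 2 at 0.38 across genes, and they correlated with each other at 0.81. Without it GLK1 (mean 1.14, adjusted p = 0.015) and HXK1 (mean -1.0, adjusted p = 0.019) passed, and without replicate 1 HXT6 passed (mean -1.13, adjusted p = 0.023). With the dye as a covariate 5 members passed, but far more of all genes passed as well than the 3.5% above (counts in the last section). The count of 5 is therefore not a result about the members. Of the sensing genes SNF3 (1.03), which encodes a high-affinity glucose sensor, was higher in rpd3 cells.

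Single arrays of rpd3 cells with plasmids had no replicates and no test. After 20 min of heat shock GLK1 was -0.49 with the empty plasmid, 1.80 with RPD3 and 1.45 with rpd3H150:151A. HXT2 was 2.82, 1.14 and 1.31 on the same arrays, and HXT5 was 2.60, 4.32 and 4.19, so for these 3 genes the array with the inactive allele lay close to that with RPD3. HXK1 was 2.15, 2.82 and 1.80, so for it the inactive allele lay closer to the empty plasmid. After 30 min of H2O2 GLK1 was 6.11 with RPD3, above all wt arrays, and 1.74 with the inactive allele. HXK1 was 2.60 and 1.25, and HXT6 was -1.09 and -2.06. In H2O2 the inactive allele thus lay below RPD3 for GLK1, HXK1 and HXT6, and also for HXT3, HXT4, HXT7 and HXK2. It lay above RPD3 for HXT1, HXT2 and HXT5, where RPD3 minus the inactive allele was -0.40, -0.77 and -0.24. No empty-plasmid array of H2O2 was used here for comparison.

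Heat shock values of wt cells with TSA were set beside those with DMSO, again on single arrays with no test. HXT2, HXT3 and GLK1 lay within 0.46 of DMSO at all 3 times, and HXK1 could not be compared at any time. HXT5 was 3.34, 4.33 and 3.54 with TSA at 5, 15 and 30 min and 3.49, 5.24 and 3.90 with DMSO, lower at all 3 times. GLK1 (by -0.43 to -0.07) and HXT1 (-1.06 to -0.40) were also lower at all 3 times. HXT6 and HXT7 stood at 1.87 and 1.08 with TSA at 15 min and at 3.44 and 3.13 with DMSO, and were within 0.57 of DMSO at 5 and 30 min.

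The near-identical pair HXT6 and HXT7 read alike in 3 treatments and apart in H2O2. HXT7 minus HXT6 had a median of -0.07 on 27 heat shock arrays, -0.11 on 14 NaCl arrays and 0.18 on 14 arrays of the shift down. The difference was within 0.5 on 22, 13 and 12 of these. In H2O2 HXT7 was above HXT6 on all 50 arrays that measured both, by 0.05 to 3.89 with a median of 1.34. Both dye orientations gave this, with medians of 1.36 on 18 arrays and 1.34 on 32. Across arrays the correlation between the genes was 0.95 to 0.97 in the other treatments and 0.47 in H2O2. In the pho23 time course HXT7 minus HXT6 went from 1.35 at 10 min to 3.89 at 40 min, whereas in the wt course it went from 1.14 at 10 min to 1.59 at 20 min and 0.62 at 60 min. The pattern was noticed in the data and was not tested.

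**Figure D4:**
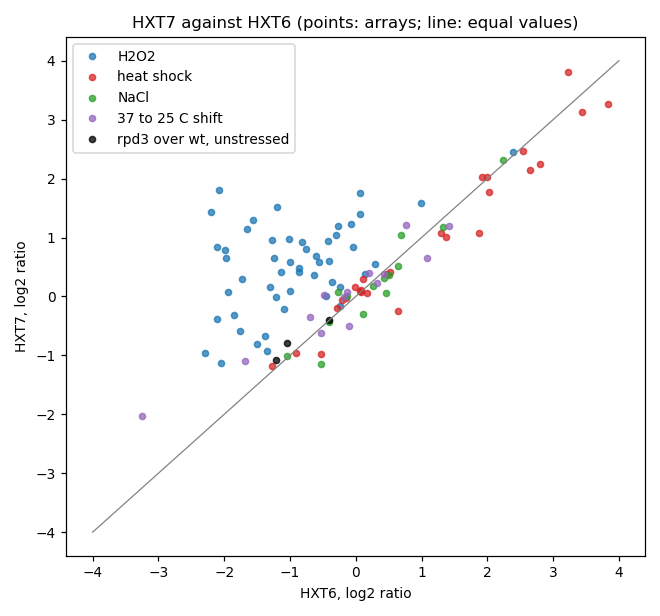
Log2 ratio of HXT7 (vertical axis) against that of HXT6 (horizontal axis) on each array that measured both, coloured by treatment, with a line of equal values. Heat shock, NaCl and temperature shift arrays lie along the line, and all 50 H2O2 arrays lie above it.

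Across all stress arrays the members are described here by Pearson's r over arrays that share cultures, strains and controls, with no test. HXT3 went with HXT4 (r = 0.84, 105 arrays) and HXT6 (0.84, 105 arrays), and HXK1 with GLK1 (0.72, 94 arrays) and HXT5 (0.72, 85 arrays). For HXK2 r was -0.08 with GLK1 (99 arrays) and -0.14 with HXK1 (87 arrays), and for HXT2 it was -0.50 with GLK1 (105 arrays). GLK1 was above 0 on 90 arrays and below 0 on 16, and HXT5 was above 0 on 88 of 96, whereas HXT1 was below 0 on 77 of 103 and HXK2 on 73 of 99.

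Over the same arrays, GLK1 was followed most closely by TPS1 (r = 0.91, all stress arrays), LSP1 (0.91, 99 arrays) and PNC1 (0.90, all stress arrays), and HXK1 by PGM2 (0.88, 93 arrays), TMA10 (0.87, 92 arrays) and GSY2 (0.86, 94 arrays). TPS1 encodes a trehalose synthase subunit, PGM2 phosphoglucomutase and GSY2 glycogen synthase. HXK2 was most like CDC19 (0.72, 88 arrays), which encodes pyruvate kinase, HOM2 (0.67, 99 arrays) and PGI1 (0.66, 98 arrays), the glycolytic isomerase that follows the kinases. HXT5 was most like ARO10 (0.81, 96 arrays), ALD4 (0.80, 88 arrays) and CWP1 (0.80, 96 arrays).

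Among the other transporters, HXT1 was most like FLC1 (0.80, 92 arrays), SUR1 (0.72, 93 arrays) and RIB4 (0.71, 97 arrays), and HXT3 like ALD6 (0.83, 95 arrays), FLC1 (0.79, 94 arrays) and SUR1 (0.78, 95 arrays). HXT4 was most like the histone H2A genes HTA1 (0.75, 105 arrays) and HTA2 (0.73, 105 arrays) and the H2B gene HTB2 (0.71, 105 arrays). HXT2 was most like SUT2 (0.78, 91 arrays), ATO3 (0.76, 104 arrays) and YAR061W (0.76, 103 arrays), and HXT6 like YDR133C (0.68, 103 arrays), ALD6 (0.67, 94 arrays) and ICY1 (0.64, 102 arrays). HXT7 had the weakest matches, LST8 (0.55, 105 arrays), RIE1 (0.54, 103 arrays) and SPI1 (0.53, 99 arrays).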

How the data were processed

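The values analysed were log2 ratios of the 2 channels of each array, as deposited by the authors in 1 table of 109 arrays and 6297 genes. All per-sample columns were mapped to samples (0 unmapped). The scanner settings, background correction and normalization behind the log2 ratios are not given in the sources used here; array means lay between -0.0017 and 0.00097, so each value is relative to its array's mean, and a shift of all genes together would not be seen. Signal and depth per spot are unknown, and the number of arrays limits the precision. No arrays held identical values.

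Samples were grouped by their labels, with replicate and course numbers from the titles where descriptions differ. Least squares fits per gene with limma's moderated t and F statistics (limma 3.58.1, R 4.3.3) covered genes with values on 80% or more of the fit's arrays, with Benjamini-Hochberg adjustment over all genes tested, at 0.01 for wild-type responses and 0.05 for differences. All H2O2 strains at 30 min shared 1 variance, as did both strains in each set of time courses; the direction of a time course is that of its estimate farthest from 0. Equal course numbers in the titles paired wt and rpd3 arrays (correlations of same-numbered deviations 0.14 to 0.43 in heat shock, 0.12 to 0.22 in NaCl and 0.50 to 0.61 in the shift down); in NaCl the course coincides with the dye. On simulated data with 200 genes changed by 2 on the log2 scale, 97.5% of those tested were recovered for rpd3 minus wt in H2O2 and 90.6% for rpd3 minus wt in NaCl. Of the simulated calls 5.34% and 5.84% were false. The simulated noise was independent between arrays and genes, and its spread was not corrected for the group means removed, so it was below that of the data. The change was also the same at every time. These shares therefore do not give the power for the differences reported here.

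The members and gene lists were chosen with earlier results of these data known. Of each list, called genes were named, largest first and at most 4 per comparison; for each member the 3 genes with the highest r over stress arrays were named. Alternatives were median centring, scaling arrays to equal spread (MAD), other filters and thresholds, dye covariate, 1 dye only, fewer arrays, replicate block, the methods' 1.5-fold rule and leaving out each array. Scaling to equal spread also removes differences between strains, stresses or times in the size of the response over all genes. Gene names and neighbours came from RefSeq's gene table, which names 5832 of the genes. Sequences were not used here.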

Additional observations from a re-analysis of the deposited data

Results flagged for a closer look

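GLK1 read 0.66 in ume6 replicate 4 after 30 min of H2O2, far from 2.69, 2.62 and 2.56 in the other 3 replicates. That array had a narrower spread over all genes (SD 0.639) than the other ume6 arrays (0.995 to 1.22). HXK1 (1.10) and HXT5 (1.05) were also at their lowest ume6 value on it. This was 1 of 20 groups of values examined, the 10 members in wt and in ume6 cells at 30 min of H2O2. Chance gives such a gap in about 1 group in 20, but these groups share arrays and are not independent.

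Responses that differed between strains by limma's test of the difference were, in H2O2 at 30 min, rpd3 minus wt of -1.23 for HXT3, -1.60 for HXT6, -1.79 for HXK1 and -1.86 for GLK1. For pho23 minus wt they were -1.47 for HXT5 and -1.84 for GLK1, and for msn2/msn4 minus wt -1.50 for HXT5 and -3.15 for HXK1, the last measured on 1 msn2/msn4 array. In NaCl GLK1 differed between rpd3 and wt by up to -2.58, at 90 min. With all arrays scaled to equal spread the rpd3 differences of HXK1 and GLK1 in H2O2, of GLK1 in NaCl and of GLK1 in pho23 cells did not pass.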

How the results depend on the processing

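Over the alternatives other than leaving out arrays, 118 of 147 counts of called members stayed within the tolerance of 1.5 times, 18 were lower and 11 higher, and no called value changed direction (HXT5 in NaCl minus heat shock, not called at 0.59, became -1.21 and called at equal spread); of 245 values of called genes, 210 kept their call and 35 lost it. Scaling arrays to equal spread gave 3 members for msn2/msn4/rpd3 minus msn2/msn4, 1 for msn2/msn4/rpd3 minus rpd3, 1 for RMY491(H4KQ), 1 for wt heat shock, 0 for rpd3 minus wt in NaCl and 1 for the wt shift down. Testing only genes measured on every array, which tests fewer genes, gave 5 for wt H2O2, 2 for rpd3, 1 for pho23, 0 for msn2/msn4, 3 for wt NaCl and 2 for NaCl minus H2O2. With 650 dye arrays only, rpd3 gave 0, and with wt replicates 1 to 3 only, pho23 gave 1. Fitting only the arrays compared gave 1 for msn2/msn4/rpd3 minus rpd3. The other threshold (0.05 for wild type, 0.01 for differences) gave 1 for pho23, 1 for msn2/msn4, 0 for rpd3 minus wt in NaCl, 3 for the wt shift down, 2 for heat shock minus H2O2 and 1 for NaCl minus heat shock. The methods' fold rule alone gave 10 for wt heat shock, 6 for rpd3 minus wt heat shock, and 6 and 3 for the shift down in wt and for the strain difference. Without a filter rpd3 minus wt in NaCl gave 0, and with a dye covariate it gave 0 while unstressed rpd3 over wt gave 5. The cause of these shifts was not tested except where the alternative itself uses fewer genes or arrays.

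With the replicate number as a block, rpd3 minus wt in NaCl gave 0 members (GLK1 adjusted p = 0.061); the block changed no other call in the time courses. In H2O2 the numbers did not pair the arrays (22 pairs, r -0.39 to 0.26, 5 over 0.1; 4 of 19 arrays correlated best with their own number); the block gave 3 members for rpd3, with HXT6 at -0.99 (adjusted p = 0.34), and 3 for pho23, with HXK1 added (adjusted p = 0.031).

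Leaving out each array in turn gave 7 to 9 members for wt H2O2, 1 to 5 for rpd3, 1 to 3 for pho23, 0 for rco1, 0 to 1 for ume6, 1 to 3 for msn2/msn4, 0 to 1 for msn2/msn4/rpd3 minus msn2/msn4, 0 for msn2/msn4/rpd3 minus rpd3 and 0 to 1 for RMY491(H4KQ). The time courses gave 2 to 6 for wt heat shock, 0 to 1 for its strain difference, 4 to 5 for wt NaCl, 0 to 1 for its strain difference and 0 for both shift down comparisons. Unstressed rpd3 over wt gave 0 to 2, NaCl minus H2O2 2 to 4, heat shock minus H2O2 1 to 5 and NaCl minus heat shock 1 to 2. Counts over all genes moved more: for rpd3 minus wt in H2O2, 1187 genes became 219 with 650 dye arrays only and 378 with genes measured on every array, for rpd3 minus wt in NaCl 140 became 12 with equal spread and 66 with the block, and for unstressed rpd3 over wt 155 became 1959 with the dye covariate.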
